A study of Capra hircus with 25 samples.

Results

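The let-7 family was followed in the liver of Laiwu black goat kids (a domestic goat breed) from 1 day to 12 weeks of age through its 9 main strands: chi-let-7a-5p, chi-let-7b-5p, chi-let-7c-5p, chi-let-7d-5p, chi-let-7e-5p, chi-let-7f-5p, chi-let-7g-5p, chi-let-7i-5p and chi-miR-98-5p. The prefix chi- marks goat entries and is left out from here on. The strands were taken by name from a table of 463 microRNAs (miRNAs), and all 9 were among the 405 entries at or above 1 RPM in at least 5 libraries. RPM is the read count of a miRNA scaled to a common library total. The table covers 25 liver libraries, 5 at each of 5 ages, namely 1 day and then 2, 4, 8 and 12 weeks. Breed and tissue are shared by all groups, and the labels name no treatment, sex or diet. Whether each library is a separate animal is not in the labels. The p-values thus reflect variation among libraries, some of which may be technical.

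miRNAs are short RNAs that guide repressor complexes to messenger RNAs, and the bases near the 5′ end, called the seed, set most of the targeting. The let-7 family was found in the worm Caenorhabditis elegans as a timer of late development, and its members share the same seed. In mammals the RNA-binding proteins LIN28A and LIN28B block the maturation of let-7 precursors in embryonic tissue, and mature let-7 becomes abundant as tissues differentiate. Known targets in mammals include HMGA2, MYC, RAS genes and the IGF2 messenger RNA binding proteins, which are active in fetal growth. Because the mature strands differ from one another at few bases, reads with a mismatch can be assigned to the wrong member. How such reads were handled is not stated in the labels, so the division between members carries that uncertainty.

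The labelled tissue was checked by its defining marker: miR-122, the main miRNA of hepatocytes, took 11.2% to 19.5% of the summed RPM in the 25 libraries. Values of low miRNAs lay on whole multiples of 1 step, which implies about 7061848 to 11928707 reads per library, with 1 read worth 0.0838 to 0.142 RPM. Every member is far above this step. The spread between libraries, and not counting error, therefore limits the comparisons. One library stood apart: in 4-week replicate 2 the mesenchymal miR-143-3p had 247260 RPM, against 89358 to 103192 RPM in the other 4-week libraries, and the 9 let-7 strands summed to 72622 RPM, against 85868 to 96421 RPM in the others. Leaving it out together with 4-week replicate 1, whose median-ratio factor of 0.910 (0.822 in replicate 2) lay below the 1.11 to 1.18 of the other 4-week libraries, is given where it changes a result.

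In the deposited scaling the 9 strands together summed to 84619 ± 5102 RPM at 1 day, 89129 ± 6247 RPM at 2 weeks, 88638 ± 9864 RPM at 4 weeks, 85971 ± 4559 RPM at 8 weeks and 87975 ± 1806 RPM at 12 weeks (SD, n = 5 each). This was 8.35%, 8.79%, 8.73%, 8.48% and 8.67% of all miRNA values at those ages. Ranges of single libraries overlapped between every pair of ages. The 12-week libraries were the closest to each other, between 86342 and 91001 RPM. After median-ratio scaling, which sets the typical miRNA equal between libraries, the sum was 107725 ± 8870 scaled RPM at 12 weeks and 68942 ± 5515 at 1 day, without overlap. The values are divided by factors of 1.13 to 1.34 at 1 day and 0.742 to 0.876 at 12 weeks. This separation thus comes mostly from the factors, since the deposited sums overlapped. Of all tested entries 48.6% had no overlap between these ages after this scaling.

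Levels within the family spread widely. All mature strands are of nearly the same length, so RPM needs no correction for length. How evenly the library preparation captured each strand was not tested. The order below is thus one of reads, not of molecules. let-7f-5p had the highest mean RPM at every age, with 32694 ± 543 RPM at 12 weeks and 29763 ± 1699 RPM at 1 day. It ranked 8 or 9 in the whole table by mean level at each age. let-7g-5p and let-7a-5p followed at every age. These 3 strands made up 78.8% to 86.5% of the family in the 25 libraries. let-7i-5p came next and miR-98-5p after it, without overlap between neighbours in this order at any age. The 4 remaining strands lay between 385 and 1703 RPM. Among them let-7c-5p, let-7d-5p and let-7b-5p changed places between ages, mostly with overlapping libraries, and let-7e-5p had the lowest mean throughout. Neighbours in the order with overlapping libraries are not separated: let-7g-5p and let-7a-5p overlapped at 2, 4 and 12 weeks, and did not at 1 day and at 8 weeks.

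**Figure D1:**
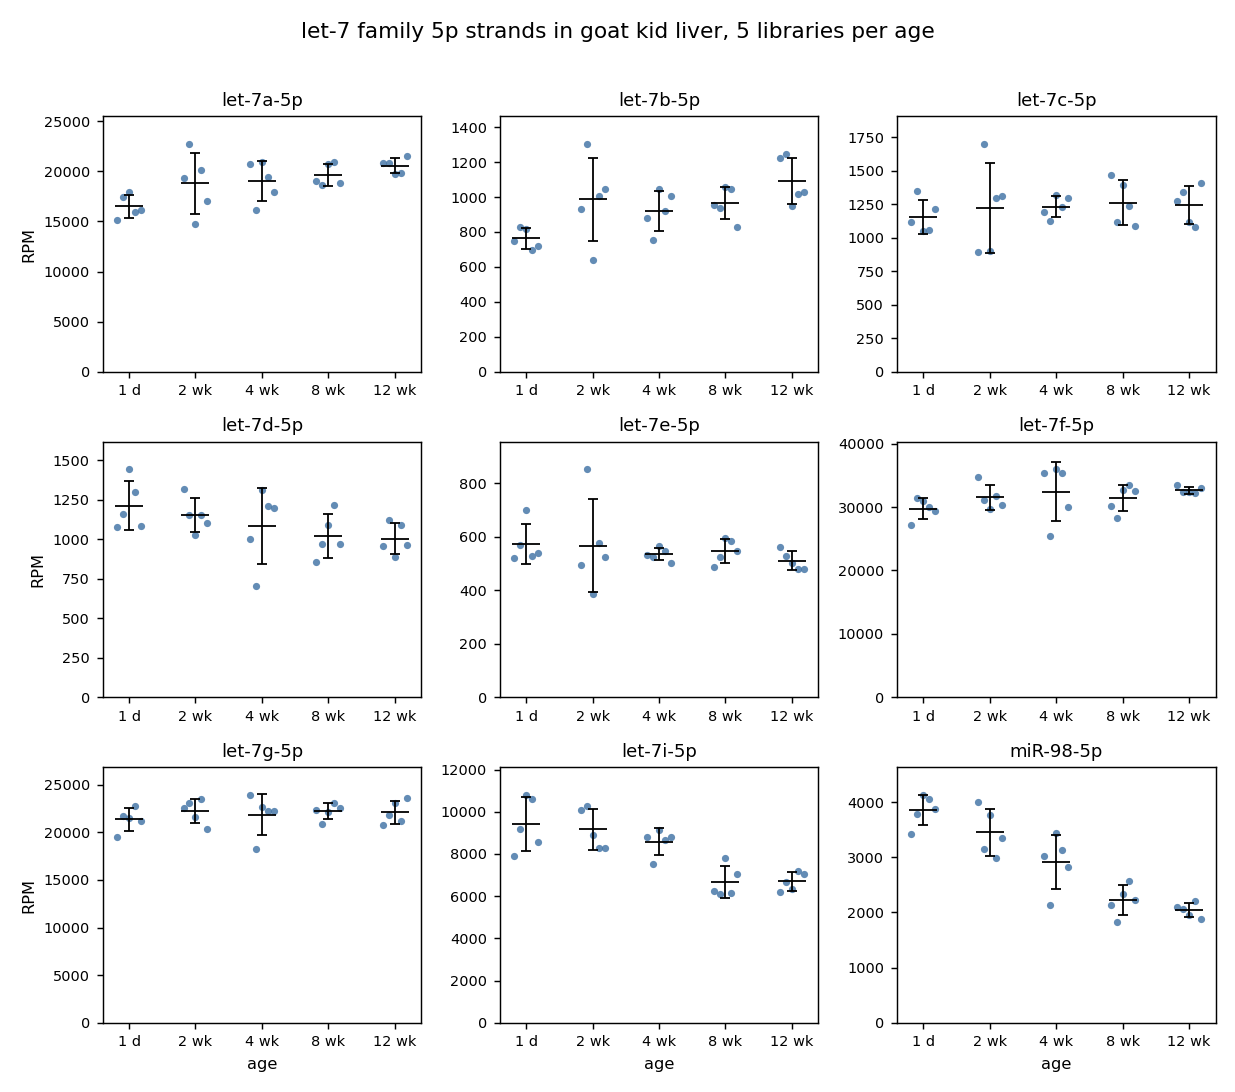
RPM (vertical axes, each from 0) of the 9 let-7 family 5p strands by age (horizontal axes). Points are the 5 libraries of an age, the bar is their mean and the whiskers 1 SD. miR-98-5p and let-7i-5p are lower at 8 and 12 weeks than at 1 day, let-7a-5p and let-7b-5p are higher at 12 weeks than at 1 day, and the other strands overlap between these ages, except let-7f-5p, whose ranges lie close together.

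At 12 weeks against 1 day the family moved apart: in the deposited scaling let-7a-5p and let-7b-5p rose, let-7i-5p and miR-98-5p fell, and 5 strands did not pass the test. Of the 405 tested entries 66.4% were called in this comparison (limma, Benjamini-Hochberg adjusted p under 0.05 over all 405), 11.6% higher and 54.8% lower, so 4 of 9 is below the general share of calls. The median log2 change was 0.05 over the 9 strands and −0.54 over all tested entries. After median-ratio scaling, which centres the typical entry by construction, the median over all entries was −0.01 and that of the 9 strands 0.64, and 7 strands were called higher and 1, miR-98-5p, lower. There 61.7% of all entries were called, 28.9% higher and 32.8% lower. Scaling by TMM, the trimmed mean of M values, gave the same 7 and 1, beside 63% of all entries.

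miR-98-5p had the largest log2 change of the 9 in the deposited scaling, while after median-ratio scaling let-7b-5p did (2.14-fold). miR-98-5p carries the family seed under another name, and its gene follows HUWE1 by start position in the RefSeq annotation of the goat assembly ARS1.2. In the 5 libraries of 1 day it had 3426, 3790, 4133, 4060 and 3879 RPM. At 2 weeks it had 4010, 3142, 3766, 2990 and 3353 RPM, and at 4 weeks 3029, 2126, 3447, 3127 and 2822 RPM. The 2-week libraries overlapped those of both neighbouring ages, and the lowest 4-week value is that of the replicate rich in miR-143-3p. At 8 weeks it had 2141, 1830, 2334, 2567 and 2230 RPM, and at 12 weeks 2100, 2055, 1947, 2210 and 1890 RPM. Every 12-week library lay below every 1-day library, while the libraries of 8 and 12 weeks overlapped. The mean was 2040 ± 126 RPM at 12 weeks and 3858 ± 277 RPM at 1 day (SD, n = 5 each), a log2 change of −0.92 ± 0.12 (SE, limma, adjusted p = 2.31e-07). The direction held under median-ratio scaling, with a log2 change of −0.33 ± 0.11 (adjusted p = 0.0117) and no overlap between 2298 to 2710 scaled RPM at 12 weeks and 2767 to 3592 at 1 day.

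let-7i-5p, whose gene stands alone from the other let-7 genes in that annotation, fell in the deposited values. It had 6197, 6668, 6357, 7184 and 7067 RPM in the 12-week libraries, against 7881, 9199, 10801, 10615 and 8569 RPM in the 1-day libraries, with no overlap. At 2 weeks its libraries lay between 8276 and 10286 RPM, at 4 weeks between 7506 and 9149 RPM and at 8 weeks between 6104 and 7808 RPM. The first 3 ages overlapped one another, and the 2 later ages sat lower, with 1 library of 8 weeks reaching into the 4-week range. The log2 change at 12 weeks against 1 day was −0.48 ± 0.10 (SE, limma, adjusted p = 0.000134). This decrease rests on the scaling: after median-ratio scaling it was 0.10 ± 0.11 (adjusted p = 0.425), with 7074 to 9527 scaled RPM at 12 weeks and 6365 to 9391 at 1 day.

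let-7a-5p, the strand identical to the founding worm let-7, rose. It had 20799, 20872, 19788, 19877 and 21581 RPM at 12 weeks, against 15143, 17418, 17905, 15939 and 16164 RPM at 1 day. No library of either age reached the range of the other. The mean was 20583 ± 751 RPM at 12 weeks and 16514 ± 1127 RPM at 1 day (SD, n = 5 each), 1.25-fold higher at 12 weeks (log2 change 0.32 ± 0.09 SE, limma, adjusted p = 0.00418). Median-ratio scaling gave 1.87-fold (adjusted p = 5.38e-08). In between it averaged 18808 ± 3063 RPM at 2 weeks, 19045 ± 2006 at 4 weeks and 19625 ± 1091 at 8 weeks.

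let-7b-5p also rose, at a far lower level, and its gene directly follows the 1 annotated copy of the let-7a gene. It had 1221, 1246, 949, 1015 and 1031 RPM in the 12-week libraries and 746, 830, 820, 698 and 721 RPM in the 1-day libraries, again without overlap. This was 1.43-fold higher at 12 weeks (log2 change 0.51 ± 0.14 SE, limma, adjusted p = 0.00216), and 2.14-fold higher after median-ratio scaling (adjusted p = 5.63e-08). The 2-week libraries were the most scattered, from 642 to 1305 RPM, a range that holds all 1-day and all 12-week values.

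The 2 strands with the highest mean RPM did not pass the test in the deposited values. let-7f-5p had 33524, 32368, 32419, 32204 and 32955 RPM at 12 weeks, against 27104, 31426, 30990, 29949 and 29348 RPM at 1 day. The libraries did not overlap, yet the log2 change of 0.14 ± 0.08 did not pass the test (SE, limma, adjusted p = 0.141). Absence of overlap is common here, since 53.1% of all tested entries had no overlap between these ages (48.6% after median-ratio scaling), and 5 of the 9 strands were among them. let-7g-5p had 20805 to 23623 RPM at 12 weeks and 19565 to 22799 RPM at 1 day, with overlapping libraries and a log2 change of 0.05 ± 0.07 (adjusted p = 0.554). After median-ratio scaling both were called higher, let-7f-5p 1.65-fold (adjusted p = 1.76e-07) and let-7g-5p 1.55-fold (adjusted p = 4.01e-06).

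The 3 other low strands overlapped between the 2 ages. let-7c-5p, whose gene lies between those of miR-125b and miR-99a, had 1080 to 1408 RPM at 12 weeks and 1049 to 1353 RPM at 1 day (log2 change 0.10 ± 0.14, adjusted p = 0.525, limma). let-7d-5p, next to let-7f in the annotation, had 884 to 1118 RPM at 12 weeks and 1076 to 1442 RPM at 1 day (−0.27 ± 0.14, adjusted p = 0.0904). Its call depended on the spread used: with only the libraries of the 2 ages in the fit the adjusted p was 0.0493, and without 4-week replicates 1 and 2 it was 0.0297. let-7e-5p, beside miR-99b, had 479 to 561 RPM at 12 weeks and 521 to 701 RPM at 1 day (−0.15 ± 0.14, adjusted p = 0.328). Median-ratio scaling called all 3 higher, with log2 changes of 0.69 for let-7c-5p, 0.32 for let-7d-5p and 0.43 for let-7e-5p (adjusted p from 0.000318 to 0.0168), so that let-7d-5p and let-7e-5p turned in sign.

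**Figure D2:**
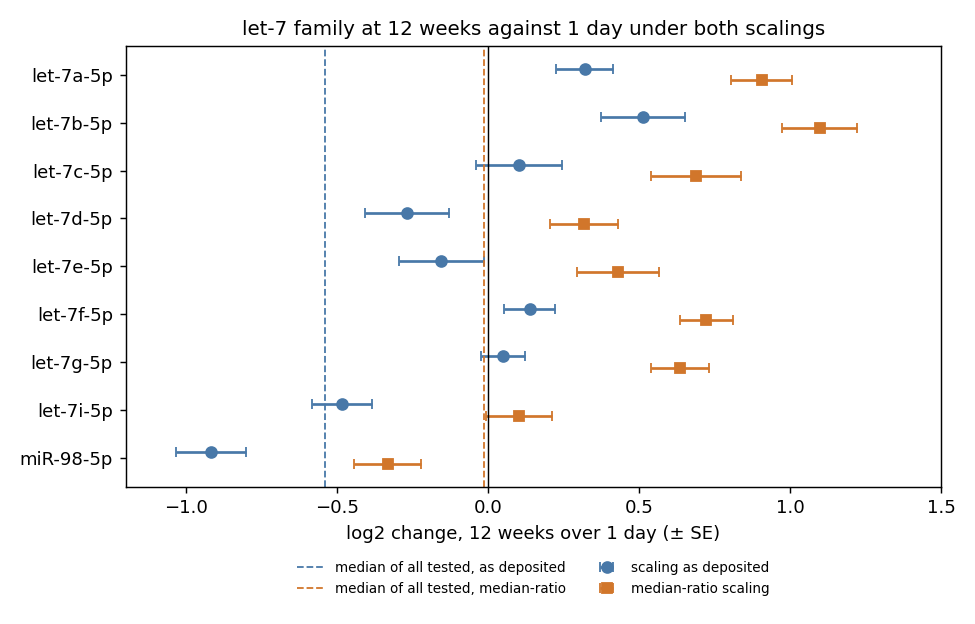
Log2 change at 12 weeks over 1 day (horizontal axis, whiskers 1 SE of the limma fit) of the 9 strands in the deposited values (circles) and after median-ratio scaling (squares). Dashed lines are the medians over all 405 tested entries, −0.54 and −0.01. Every strand but miR-98-5p lies to the right of the matching dashed line under both scalings. The order of the strands is the same under both, which follows from dividing all values of a library by 1 factor. The place of the strands beside the dashed lines is nearly fixed in the same way, so the squares are no second test of either.

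The make-up of the family is free of the library scaling, because each strand is set against the sum of the 9 in the same library. Shares add up to a fixed total, so a gain in one strand lowers the others. let-7a-5p took 23.4% ± 0.48 of the family at 12 weeks and 19.5% ± 0.69 at 1 day, and its range of 22.7% to 23.8% at 12 weeks lay above all 1-day libraries. let-7b-5p took 1.24% ± 0.15 at 12 weeks and 0.903% ± 0.067 at 1 day, and let-7f-5p 37.2% ± 0.79 at 12 weeks and 35.2% ± 0.60 at 1 day, both without overlap. On the other side, miR-98-5p took 2.32% ± 0.18 at 12 weeks and 4.56% ± 0.15 at 1 day, 0.509 times its 1-day share. let-7i-5p took 7.61% ± 0.47 at 12 weeks and 11.1% ± 0.97 at 1 day, 0.686 times. let-7d-5p took 1.14% ± 0.12 at 12 weeks and 1.43% ± 0.13 at 1 day, 0.798 times. In all, 6 of the 9 shares did not overlap between the 2 ages, 3 higher and 3 lower, while those of let-7c-5p, let-7e-5p and let-7g-5p did. Absence of overlap in RPM was common between these ages, at 53.1% of all tested entries (48.6% after median-ratio scaling). No such figure was taken for values set against the family sum, and no test is given for shares.

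**Figure D3:**
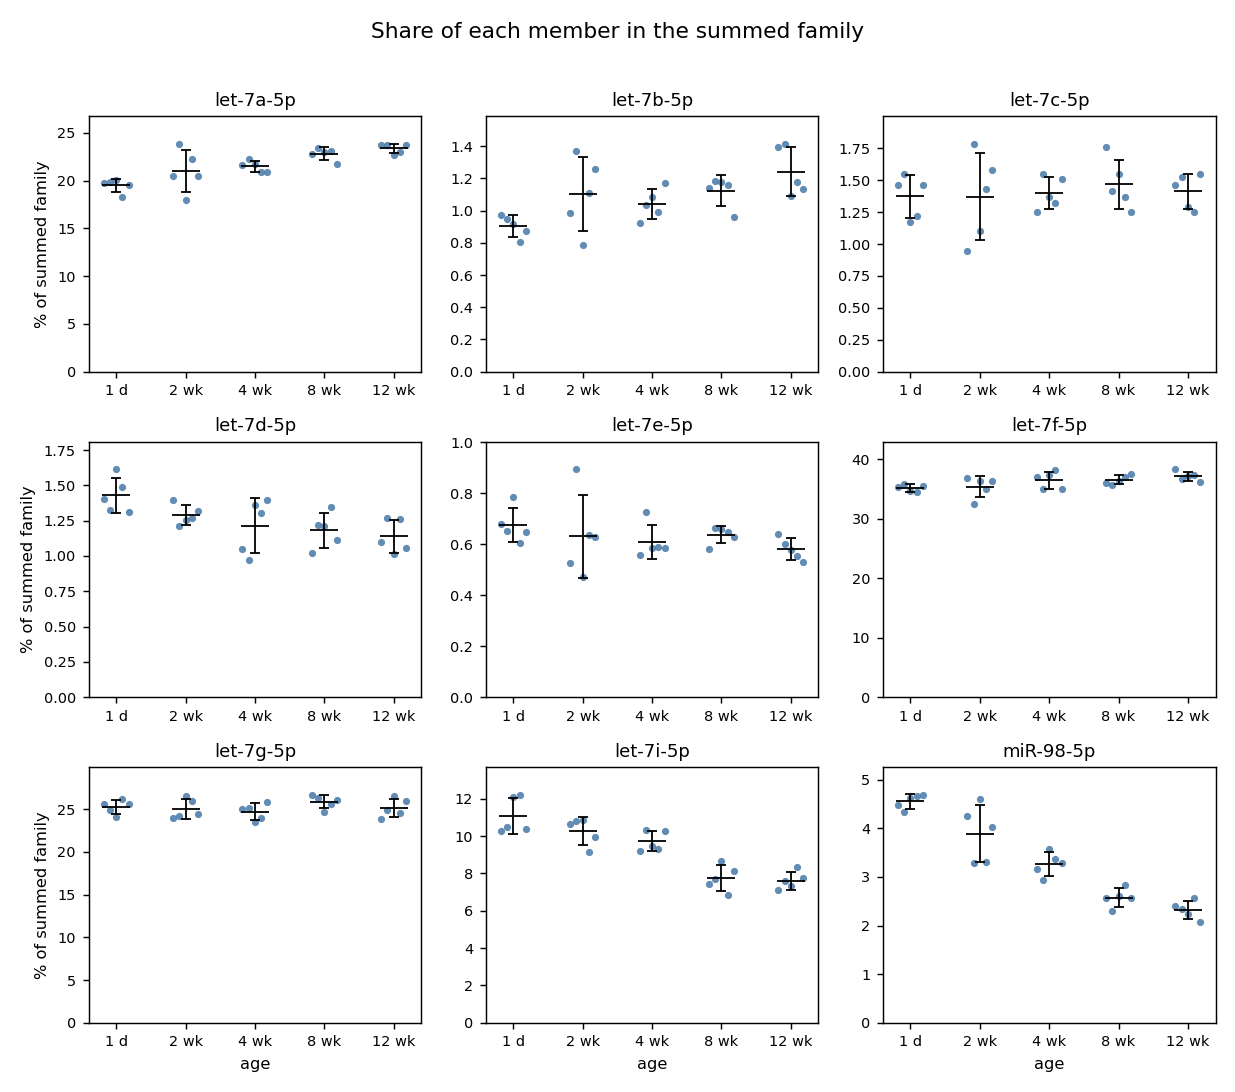
Share of each strand in the sum of the 9 (vertical axes, percent, from 0) by age (horizontal axes), with 5 libraries per age, their mean and 1 SD. The mean share of miR-98-5p is 2.32% at 12 weeks and 4.56% at 1 day, that of let-7i-5p 7.61% at 12 weeks and 11.1% at 1 day, and that of let-7a-5p 23.4% at 12 weeks and 19.5% at 1 day.

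Ratios between strands give the same quantities in another form. There were 4.29 ± 0.25 reads of let-7a-5p per read of miR-98-5p at 1 day, 5.56 ± 1.39 at 2 weeks, 6.62 ± 0.62 at 4 weeks, 8.91 ± 0.77 at 8 weeks and 10.1 ± 0.87 at 12 weeks (SD, n = 5 each). The ranges at 8 weeks (8.14 to 10.2) and 12 weeks (up to 11.4) both lay above all libraries of 1 day (3.93 to 4.60) and 4 weeks (6.08 to 7.60). let-7a-5p per let-7i-5p was 1.77 ± 0.18 at 1 day, 2.06 ± 0.30 at 2 weeks, 2.22 ± 0.13 at 4 weeks, 2.97 ± 0.31 at 8 weeks and 3.08 ± 0.21 at 12 weeks. The lowest 8-week library (2.65) exceeded the highest 4-week library (2.36). Both ratios set let-7a-5p, called higher at 12 weeks against 1 day, over a strand called lower there, so their separation adds no support. How often ratios of other entries lack overlap was not examined. let-7a-5p per let-7b-5p stayed between 16.3 and 23.5 in all 25 libraries, with overlapping ranges at every age.

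Over the 5 ages 4 of the 9 strands differed (moderated F test, limma, adjusted p under 0.05), against 64.7% of all 405 entries. These were miR-98-5p (adjusted p = 3.81e-07), let-7i-5p (adjusted p = 4.32e-05), let-7b-5p (adjusted p = 0.0306) and let-7a-5p (adjusted p = 0.0453). The calls of let-7a-5p and let-7b-5p stand close to the threshold: 5 of the 25 fits that left out 1 library, those without 1-day replicate 1, 4 or 5 or without 12-week replicate 1 or 2, called 2 strands only. In the deposited values the means of miR-98-5p and let-7d-5p were lower at each later age, an order neither kept after median-ratio scaling, and those of let-7a-5p were higher at each later age under both scalings. The F test does not ask about such an order, and let-7d-5p did not pass it (adjusted p = 0.304). After median-ratio scaling 7 strands passed, with let-7d-5p (adjusted p = 0.139) and let-7i-5p (adjusted p = 0.192) as the exceptions, against 60.7% of all entries.

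Between neighbouring ages few calls were made, and each comparison shares libraries with the next. At 2 weeks against 1 day 0 of 9 strands passed (limma), while 5.68% of all entries did. At an unadjusted limma p under 0.05 there was 1 strand, let-7b-5p (log2 change 0.34 ± 0.14 SE, adjusted p = 0.13). Over the 10 limma fits that left out 1 library its adjusted p ran from 0.0173 to 0.284. Only 1 of them, that without 2-week replicate 3, made a call. After median-ratio scaling let-7a-5p (log2 change 0.39), let-7b-5p (0.55) and let-7f-5p (0.30) were called higher there (adjusted p = 0.0214, 0.00713 and 0.0415), beside 7.41% of all entries, 5.43% higher. TMM called the same number, beside 7.65% of all entries. At 4 weeks against 2 weeks 0 of 9 passed, with 2.96% called of all entries (3.46% and 0 strands after median-ratio scaling). There miR-98-5p had the only unadjusted p under 0.05 (log2 change −0.26 ± 0.12 SE, adjusted p = 0.23, limma).

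At 8 weeks against 4 weeks let-7i-5p and miR-98-5p fell, with overlapping libraries, 2 of 9 strands against 6.91% of all entries, 5.19% lower. let-7i-5p averaged 6666 ± 744 RPM at 8 weeks and 8579 ± 629 RPM at 4 weeks (log2 change −0.37 ± 0.10 SE, limma, adjusted p = 0.031). miR-98-5p averaged 2220 ± 270 RPM at 8 weeks and 2910 ± 493 RPM at 4 weeks (−0.38 ± 0.12 SE, adjusted p = 0.0436). Leaving out 1 library ended that of let-7i-5p in 6 of 10 fits and that of miR-98-5p in 8 of 10, with adjusted p up to 0.0966 (without 4-week replicate 3) and 0.165 (without 4-week replicate 3). The other losses for let-7i-5p came without 4-week replicates 4 and 5 and without 8-week replicates 1, 2 and 4. Those for miR-98-5p came without 4-week replicates 1, 4 and 5 and without 8-week replicates 1, 2, 3 and 5. Median-ratio scaling kept both signs, −0.21 and −0.22, without a call (adjusted p = 0.206 and 0.196), as did TMM, with 6.67% of all entries called. With only the libraries of these 2 ages in the fit neither was called (adjusted p = 0.0712 for let-7i-5p and 0.143 for miR-98-5p, limma), and without 4-week replicates 1 and 2 both were (adjusted p = 0.007 and 0.00276). At 12 weeks against 8 weeks 0 of 9 passed, and none had an unadjusted p under 0.05 (limma), with 1.23% of all entries called (0 of 9 and 0.494% after median-ratio scaling).

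**Figure D4:**
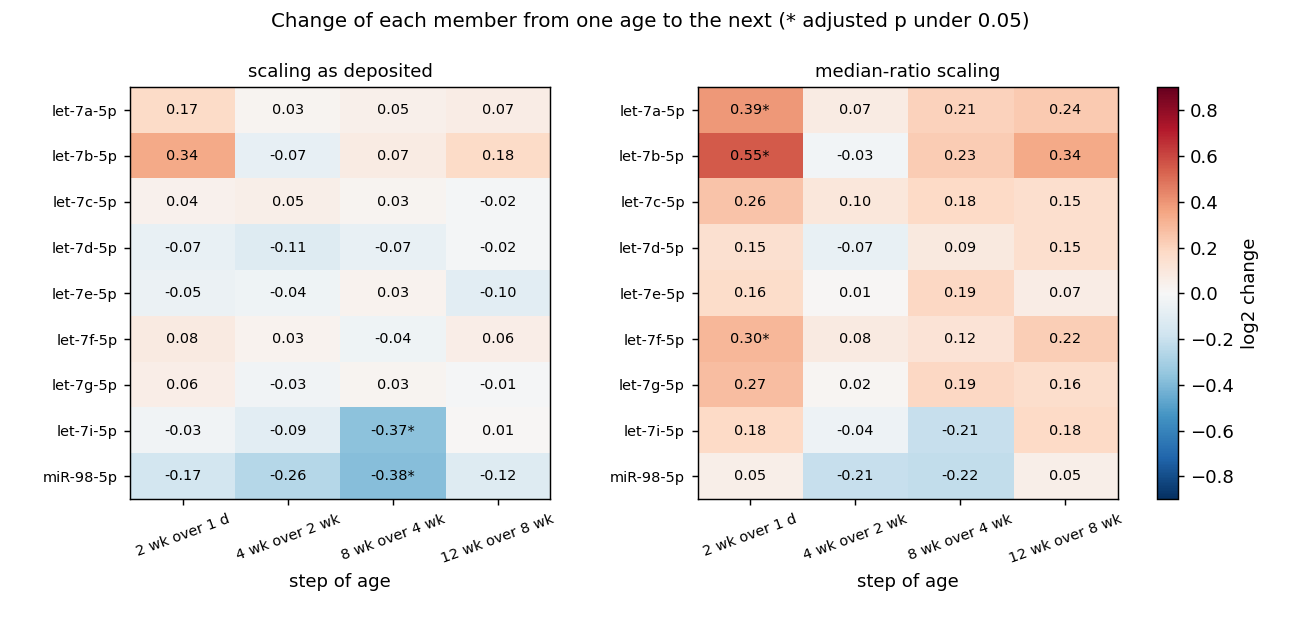
Log2 change of each strand (rows) at each step of age (columns), later age over earlier, in the deposited values (left) and after median-ratio scaling (right), with stars at adjusted p under 0.05 (limma). In the deposited values the stars are let-7i-5p (−0.37) and miR-98-5p (−0.38) at 8 weeks over 4 weeks, and after median-ratio scaling they are let-7a-5p, let-7b-5p and let-7f-5p at 2 weeks over 1 day.

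Across the 25 libraries the strands fell into no single pattern. Of 36 pairs, 29 had a positive Pearson r of log2(RPM + 1), with r from −0.45 (let-7a-5p with miR-98-5p) to 0.87 (let-7i-5p with miR-98-5p). The 25 libraries share 5 ages and 1 common scaling per library, so these values describe and are not tested. let-7a-5p and let-7b-5p had r = 0.86 (Spearman rho 0.82). With the age means taken out, r was positive for 34 of 36 pairs, among them 0.80 for let-7f-5p with miR-98-5p, which had r = 0.03 over all libraries. The outlying 4-week replicate 2 had the lowest 4-week value of both strands, 25455 RPM for let-7f-5p and 2126 RPM for miR-98-5p. The r of 0.80 may rest in part on this library, and r without it was not taken. How often pairs of other entries have a positive r was not examined, so neither count of positive pairs sets the family apart.

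Outside the let-7 names, the entry most alike in pattern over 25 libraries was named for each strand by the highest Pearson r. For miR-98-5p it was miR-532-5p (r = 0.93, Spearman rho 0.91), and it remained the most alike after median-ratio scaling (r = 0.77). For let-7c-5p it was miR-99a-5p, the product of the neighbouring gene (r = 0.80, and 0.92 after median-ratio scaling). For let-7b-5p it was miR-23a (0.75 and 0.92) and for let-7e-5p miR-214-3p (0.82 and 0.79), both also first after rescaling. The nearest entries of the others changed with the scaling: miR-16a-5p for let-7a-5p (r = 0.78, and 0.93 after median-ratio scaling), miR-329b-3p for let-7d-5p (0.75 and −0.04), miR-20a-5p for let-7f-5p (0.65 and 0.78), miR-7-5p for let-7g-5p (0.49 and 0.81) and miR-329a-3p for let-7i-5p (0.85 and 0.22). After median-ratio scaling miR-26a-5p was nearest to let-7a-5p, let-7f-5p and let-7g-5p (r = 0.93, 0.93 and 0.94), miR-16b-5p to let-7d-5p (0.66) and miR-27b-5p to let-7i-5p (0.62).

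The partners that share gene clusters with let-7 in vertebrates, miR-99a-5p, miR-99b-5p, miR-100-5p, miR-125a-5p and miR-125b-5p, fell or did not pass in the deposited scaling. The miR-125 strands are relatives of lin-4, the other timing miRNA of the worm. At 12 weeks against 1 day 3 of the 5 fell and 0 rose (limma), with a median log2 change of −0.55, beside 54.8% of all entries called lower and their median of −0.54. These were miR-99b-5p (396 ± 49.9 RPM at 12 weeks, 617 ± 124 at 1 day, adjusted p = 0.000286), miR-100-5p (1584 ± 148 RPM at 12 weeks, 2331 ± 412 at 1 day, adjusted p = 0.00133) and miR-125a-5p (1141 ± 132 RPM at 12 weeks, 1674 ± 293 at 1 day, adjusted p = 0.00222). miR-99a-5p had 5660 ± 572 RPM at 12 weeks and 6016 ± 691 RPM at 1 day without passing (adjusted p = 0.556), and miR-125b-5p 2886 ± 291 RPM at 12 weeks and 3424 ± 341 RPM at 1 day (adjusted p = 0.111). After median-ratio scaling none was lower, and miR-99a-5p and miR-125b-5p were higher (log2 changes 0.50 and 0.34). Of their 5 opposite (3p) strands 2 fell, beside the same 54.8% of all entries, and after median-ratio scaling 2 rose and 0 fell, beside 28.9% of all entries higher and 32.8% lower. miR-202-5p, from a hairpin whose other arm has a let-7-like seed, was at 0 to 4.34 RPM with a median of 0.47 and was not tested.

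The 3p strands, the opposite arms of the same hairpins, were minor partners of all 9 members. At 12 weeks the 3p share of both arms averaged from 0.0152% (let-7g) to 2.98% (let-7d), and at 1 day from 0.024% (let-7g) to 4.07% (let-7d). Of the 9 opposite strands 5 fell at 12 weeks against 1 day and 0 rose, a share near the 54.8% of all entries called lower. After median-ratio scaling 1 fell and 1 rose, beside 32.8% of all entries lower and 28.9% higher. miR-98-3p fell, as its 5p strand did, with 9.61 ± 2.27 RPM at 12 weeks and 34.6 ± 5.27 RPM at 1 day (log2 change −1.76 ± 0.20 SE, limma, adjusted p = 6.88e-08; −1.21 after median-ratio scaling). let-7a-3p fell in the deposited values while its 5p strand rose, with 50.9 ± 6.45 RPM at 12 weeks and 79.1 ± 13.7 RPM at 1 day (adjusted p = 0.00142), but had a log2 change of −0.04 after median-ratio scaling.

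The 2 sheep-named entries bear the names of let-7a-5p and let-7f-5p. oar-let-7a had 57.4 ± 6.24 RPM at 12 weeks and 22.8 ± 4.65 RPM at 1 day, 2.48-fold higher (limma, adjusted p = 6.53e-07), and oar-let-7f 137 ± 13.9 RPM at 12 weeks and 52.1 ± 8.98 RPM at 1 day, 2.61-fold higher (adjusted p = 9.13e-08). At 12 weeks oar-let-7a was 0.278% of its strand's summed level and oar-let-7f 0.417%, against 0.138% for oar-let-7a and 0.175% for oar-let-7f at 1 day. The difference from the goat entries was not tested, and adding the sheep-named reads to these leaves the same 4 strands called at 12 weeks against 1 day.

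Calls for markers of cell types are given beside the general share of calls. In the deposited scaling 11.6% of all entries were called higher at 12 weeks against 1 day and 54.8% lower. After median-ratio scaling 28.9% were higher and 32.8% lower. A call alone thus does not set a marker apart. At 12 weeks against 1 day the striated muscle list (5 of 6 tested) had 3 higher and 1 lower, with summed levels of 6187 to 13576 RPM at 12 weeks and 646 to 2181 RPM at 1 day. The leukocyte list (4 of 6 tested) had 2 higher, with 2115 to 3717 RPM at 12 weeks and 1079 to 1988 RPM at 1 day. The erythroid list (3 of 4 tested) had 1 higher and 1 lower, with 2732 to 4371 RPM at 12 weeks and 1382 to 2171 RPM at 1 day. The endothelial list had 2 of 2 lower, with 22008 to 27997 RPM at 12 weeks and 27072 to 32834 RPM at 1 day. The biliary list had 2 of 5 lower, and the 4 hepatocyte and 4 mesenchymal markers had none called. Neural (1 of 2 tested) and pancreatic (1 of 3 tested) lists had none called, at summed levels of at most 161 and 5.76 RPM. After median-ratio scaling the calls differed: 4 hepatocyte, 4 leukocyte, 1 erythroid, 1 endothelial, 1 mesenchymal and 4 striated muscle markers were higher, 1 striated muscle marker was lower, and no biliary marker was called. No listed entry was at 0 in every library. In bulk liver, fewer cells of a type and less of an RNA per cell cannot be told apart, and the part of these cells in the let-7 changes was not tested.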

How the data were processed

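miRNA values of 25 goat kid liver libraries, 5 per age, came as one deposited table. RNA came from frozen liver by Trizol, and libraries were built from 5 ug of it with a stranded total RNA kit, as the protocols in the labels state. Whether the miRNA reads came from such libraries was not examined. The submitters' processing notes list Bowtie 1.1.1. For the genome build, annotation, read trimming and multiply matching reads, nothing was given in the sources used here. The unit of the authors' deposited values was taken as RPM from the values themselves, since columns sum to 1010980 to 1018220. Low values (up to 20 steps) were whole multiples of 1 step within 0.1 step in 100% of cases, but 24 libraries held under 100 such values, so no count test was run. The 50 pairs of libraries of the same age differed by far more than sampling noise (chi-square per degree of freedom at least 49.0).

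Values were taken as log2(RPM + 1), which understates changes of low miRNAs. Entries with at least 1 RPM in at least 5 libraries were kept (405 of 463), and limma 3.58.1 with a variance trend modelled 1 mean per age over the 25 libraries. P-values were adjusted by Benjamini-Hochberg over 405 entries in each comparison, and calls were made under 0.05. Named are all 9 members, the other let-7 and miR-98 entries, cluster partners and, for each member, the entry with the highest Pearson r. Members and lists were chosen with earlier results of these data known. Replicate numbers showed no visible pairing of libraries: deviations from the age means of same-numbered libraries had a median correlation of −0.03 over 50 pairs. Alternatives were median-ratio and unweighted TMM scaling, 2 other filters, pseudocounts of 0.1 and 10, a replicate block, fewer libraries and added sheep-named entries. The test was tried on simulated data with a common depth and changes of random sign. That simulation held no library-wide shift, so it says nothing on the choice of scaling. Gene neighbours come from RefSeq (ARS1.2), where 9 member genes matched by symbol, with 1 annotated copy each. Genes were ordered by start position, so a gene named as a neighbour may contain the other. Further source genes of a strand were not examined. No mature sequences were used here. Software was R 4.3.3, Python 3.11.15, matplotlib 3.10.9, scipy 1.17.1, pandas 2.3.3 and numpy 2.4.6.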

Additional observations from a re-analysis of the deposited data

Results flagged for a closer look

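Among 50 sets of 5 libraries (9 strands and their sum at 5 ages), 1 held a library far from the others, where chance gives about 1 in 20 sets. let-7e-5p had 701 RPM in 1-day replicate 3, against 521 to 571 RPM in the other 1-day libraries, a gap of 0.721 of the whole range. Without it let-7e-5p remained uncalled at 12 weeks against 1 day.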

How the results depend on the processing

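Scaling mattered most. With median-ratio and with TMM scaling 7 strands passed the F test over 5 ages in place of 4, 8 were called at 12 weeks against 1 day in place of 4, 3 at 2 weeks against 1 day in place of 0, and 0 at 8 weeks against 4 weeks in place of 2. The difference in the summed family at 12 weeks minus 1 day was 38783 and 39420 scaled RPM in place of 3356 RPM. The cause was not tested. With only the 2 ages in the fit, 0 strands were called at 8 weeks against 4 weeks. Over the fits that leave out 1 library, 2 to 4 strands passed the F test, 0 to 1 were called at 2 weeks against 1 day and 0 to 2 at 8 weeks against 4 weeks, the summed difference was 1347 to 4536 RPM, and 6 to 7 shares did not overlap. The 4 calls at 12 weeks against 1 day held in each of these fits. A replicate block gave 2 strands in the F test and left the counts of the age comparisons as they were (4, 0, 0, 2 and 0). Only 1 of 25 libraries correlated best with its own number, so no pairing by number was visible. A weak link between same-numbered libraries could escape this check. Log2 changes that turned in sign follow, median-ratio value before TMM value.

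For 12 weeks against 1 day they were let-7d-5p (0.32, 0.33), let-7e-5p (0.43, 0.44) and let-7i-5p (0.10, 0.11). For 2 weeks against 1 day they were let-7d-5p (0.15, 0.15), let-7e-5p (0.16, 0.17), let-7i-5p (0.18, 0.18) and miR-98-5p (0.050, 0.053). For 4 weeks against 2 weeks they were let-7e-5p (0.011, 0.015) and let-7g-5p (0.018, 0.023). For 8 weeks against 4 weeks they were let-7d-5p (0.089, 0.083) and let-7f-5p (0.12, 0.12). For 12 weeks against 8 weeks they were let-7c-5p (0.15, 0.16), let-7d-5p (0.15, 0.16), let-7e-5p (0.067, 0.076), let-7g-5p (0.16, 0.17) and miR-98-5p (0.050, 0.060). Without 4-week replicates 1 and 2, the sign turned of let-7b-5p (0.039), let-7d-5p (0.11) and let-7g-5p (0.0099) for 4 weeks against 2 weeks, and of let-7b-5p (−0.039), let-7c-5p (−0.032) and let-7g-5p (−0.011) for 8 weeks against 4 weeks.

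Leaving out 1 library turned only changes that were not called. For 2 weeks against 1 day the ranges were −0.089 to 0.14 for let-7c-5p, −0.21 to 0.075 for let-7e-5p and −0.096 to 0.018 for let-7i-5p. For 4 weeks against 2 weeks the ranges were −0.058 to 0.10 for let-7a-5p, −0.22 to 0.037 for let-7b-5p, −0.050 to 0.18 for let-7c-5p, −0.19 to 0.033 for let-7d-5p, −0.16 to 0.12 for let-7e-5p, −0.0085 to 0.12 for let-7f-5p and −0.063 to 0.034 for let-7g-5p. For 8 weeks against 4 weeks the ranges were −0.0095 to 0.085 for let-7a-5p, −0.032 to 0.077 for let-7c-5p, −0.22 to 0.0081 for let-7d-5p, −0.12 to 0.0044 for let-7f-5p and −0.035 to 0.062 for let-7g-5p. For 12 weeks against 8 weeks the ranges were −0.067 to 0.042 for let-7c-5p, −0.078 to 0.050 for let-7d-5p, −0.032 to 0.014 for let-7g-5p and −0.019 to 0.069 for let-7i-5p.

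Of 450 member values under settings other than leaving out a library, 392 kept direction and side of the threshold. The count tests planned for recovered whole reads were not run, since 24 libraries held fewer than the 100 low values asked for. The reads per library and the chi-square values given above rest on the same steps and carry that limit. The alternatives for the shares were chosen after seeing the data.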
